A study of Mus musculus with 22 samples.

Results

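The miR-29 family was represented here by mmu-miR-29a-3p and mmu-miR-29c-5p (miR-29a-3p and miR-29c-5p in what follows), which were chosen by name as 2 of the 172 miRNAs listed in hypothalamic small RNA libraries of mouse offspring. miR-29a was picked because the study names it among miRNAs that act in the hypothalamus on body weight, and miR-29c-5p because it comes from the hairpin of a close relative. Earlier results of these data were known when both were chosen, a limit on every unadjusted p and rank given for them. miRNAs are short RNAs that are cut from a hairpin precursor and lower the stability or translation of mRNAs, which they find mainly through the seed near their 5′ end. Each hairpin has a 5p and a 3p arm, and usually one of them is kept in the silencing complex while the other is degraded. In mammals the 3p arms of miR-29 carry the seed that defines the family, they are known for lowering collagens and other matrix genes and DNA methyltransferases, and in the brain they increase as neurons mature. The 5p arms are the less studied partners and have a different seed.

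The libraries came from male wild type C57BL/6J offspring aged 8 weeks that ate chow after weaning and were culled fed. Off-Ob mice were born to dams kept on an obesogenic high-fat diet with sweetened condensed milk, and Off-C mice to lean dams kept on chow, with 1 male taken per litter. The arcuate nucleus (ARC) and the paraventricular nucleus (PVH) were cut from frozen brain sections by laser capture, so that each library held the RNA of whole tissue. Each nucleus had 5 Off-Ob and 6 Off-C libraries, 22 in all from 12 mice, of which 10 gave a library of both nuclei (4 Off-Ob and 6 Off-C mice). The pups stayed with their dams until weaning, so the maternal diet was also within their reach for a time.

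The sequences are shown because the members differ in the part that finds targets, with the seed (bases 2 to 8 from the 5′ end) in capitals. They were taken from RefSeq on GRCm38.p6, and the first 3 are all the listed miRNAs with a family seed.
miR-29a-3p: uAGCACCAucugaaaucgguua
miR-29c-3p: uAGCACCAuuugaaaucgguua
miR-29b-3p: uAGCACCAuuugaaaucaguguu
miR-29c-5p: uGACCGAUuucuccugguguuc
miR-29a-3p differed from miR-29c-3p by the single substitution C10U, counted from the 5′ end with the base of miR-29a-3p first. It differed from miR-29b-3p at 4 of the 22 bases compared (C10U, G18A, U21G and A22U), and miR-29b-3p was 1 base longer. The seed AGCACCA was thus shared by miR-29a-3p with 2 other listed miRNAs, whereas the seed GACCGAU of miR-29c-5p occurred in no other of the 148 listed miRNAs that matched a RefSeq sequence. How the authors assigned a read that fits several of these near-identical arms is not given in the sources used here, so reads of miR-29a-3p and miR-29c-3p may be exchanged in part.

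The members lie on different chromosomes. Mir29a, the hairpin of miR-29a-3p, is at chr6:31062660-31062747 on the minus strand of GRCm38.p6, 275 bases from Mir29b-1. Mir29c, the hairpin of miR-29c-5p and miR-29c-3p, is at chr1:195037547-195037634 on the plus strand, 426 bases from Mir29b-2. In the GENCODE M21 annotation of the same build, Mir29a overlapped no other gene. Mir29c overlapped an exon of the processed transcript A330023F24Rik on its own strand and an exon of the protein-coding gene Cd46 on the opposite strand. miR-29b-3p has the same sequence from Mir29b-1 and Mir29b-2, so its reads cannot be given to one locus.

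Both members were scarce. Levels are log2(CPM + 1) as deposited, where CPM scale each count to the reads of its library, corrected by a factor the authors computed for that library, and they carry no term for length, the 4 arms being 22 or 23 bases long. By mean level over all libraries miR-29a-3p ranked 106th and miR-29c-5p 111th of the 172 miRNAs, against 14th for miR-29c-3p and 25th for miR-29b-3p. The reads of the 172 listed miRNAs summed to the deposited library size in all 22 libraries. Totals, CPM and percentages of reads here therefore refer to the reads of listed miRNAs, and reads of other RNAs are not in them. These totals were 22680 to 91790 reads in ARC libraries and 22495 to 61476 in PVH libraries. They held 5 to 34 reads of miR-29a-3p and 3 to 34 reads of miR-29c-5p per library. In the ARC library of the Off-Ob mouse F42A, the 3 reads of miR-29c-5p were 0.0132% of the reads (Wilson 95% interval 0.00450% to 0.0389%) and the 5 reads of miR-29a-3p 0.0220% (0.00942% to 0.0516%). These intervals describe counting error alone, as the reads carry no molecular identifiers and PCR copies of 1 molecule could have been counted apart. Neither member was at 0 reads in any library, and both passed the filter of a CPM of at least 1 in at least 5 libraries, as did all 172.

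The ARC libraries of the Off-Ob mice F42A and F6A stood apart from the other 20 in their share of let-7 reads. Reads of the let-7 family made up 79.1% of the F42A library and 64.2% of the F6A library, against 33.8% to 46.8% in Off-C ARC libraries. The deposited scale factors of these libraries were 0.470 for F42A and 0.872 for F6A, against 1.03 to 1.21 in the Off-C ARC libraries, so that 1 read stood for 93.8 CPM in F42A. Results for the ARC are therefore given with and without them, and with plain CPM, which divide by the total reads alone.

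In the ARC, whether the offspring of obese mothers carried more miR-29a-3p could not be told from these libraries. There were 21, 32, 22, 34 and 5 reads in the Off-Ob mice F6A, F12A, F13A, F41A and F42A, against 32, 17, 14, 13, 9 and 21 reads in the Off-C mice RC5A, RC8A, RC9A, RC11A, RC12A and RC13A. The deposited levels of mmu-miR-29a-3p in the same order were 9.0, 8.99, 8.79, 8.50 and 8.88 in Off-Ob mice, against 8.92, 8.81, 7.93, 8.33, 7.73 and 8.76 in Off-C mice. All 5 Off-Ob libraries were above the Off-C mean and 2 of them above every Off-C library, while RC5A, RC8A and RC13A lay within the Off-Ob range, so the groups overlapped. The mean was 8.83 ± 0.20 in Off-Ob mice (SD, n = 5) and 8.41 ± 0.50 in Off-C mice (SD, n = 6). The limma difference was 0.42 on the log2(CPM + 1) scale (SE 0.28, 95% interval -0.19 to 1.03, adjusted p = 0.49 over the 172 miRNAs), and an exact permutation test of all 462 splits gave p = 0.126 (two-sided, n = 5 and 6). With plain CPM the difference was 0.063 (limma adjusted p = 0.91), and without F42A and F6A it was 0.35 on the deposited scale (limma adjusted p = 0.99). The call was the same in each case.

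On the deposited scale miR-29c-5p lay on the other side of the Off-C mean in the same libraries. There were 11, 21, 15, 28 and 3 reads in the Off-Ob mice F6A, F12A, F13A, F41A and F42A, against 34, 15, 20, 15, 18 and 15 reads in the Off-C mice RC5A, RC8A, RC9A, RC11A, RC12A and RC13A. The deposited levels of mmu-miR-29c-5p were 8.07, 8.39, 8.24, 8.22 and 8.14 in Off-Ob mice, against 9.0, 8.63, 8.45, 8.53, 8.73 and 8.28 in Off-C mice. Of the 5 Off-Ob libraries, 4 lay under the lowest Off-C value, and the fifth, F12A, was above RC13A alone. Groups that did not overlap at all were found for 0.581% of the 172 miRNAs in the ARC, 1 miRNA, and neither member was that one. The mean was 8.21 ± 0.12 in Off-Ob mice (SD, n = 5) and 8.60 ± 0.25 in Off-C mice (SD, n = 6).

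The difference for miR-29c-5p in the ARC was -0.39 by limma (SE 0.22, 95% interval -0.87 to 0.093, unadjusted p = 0.104, adjusted p = 0.49). The exact permutation test gave p = 0.00866 (two-sided, 462 splits), the third smallest of the 172 miRNAs, and an adjusted p of 0.27 over all of them. By that test 10.5% of the 172 miRNAs had an unadjusted p under 0.05, and by limma 5.81%. An adjusted p under 0.05 was reached by 0% of them with either test. The spread among the Off-Ob libraries, 0.12, was below the 0.49 that counting error alone would give at these reads, and limma, which draws each spread towards that of miRNAs of like level, used a larger one. With plain CPM the difference was -0.75 (limma SE 0.32, adjusted p = 0.39). The exact permutation test of plain CPM gave p = 0.00433 (two-sided, adjusted p = 0.19), where 13.4% of all miRNAs were under 0.05. Without F42A and F6A the difference was -0.32 (limma adjusted p = 0.99, exact permutation p = 0.0714, where 3 against 6 libraries allow no p below 0.0119), and F12A, F13A and F41A each remained below the Off-C mean.

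**Figure D1:**
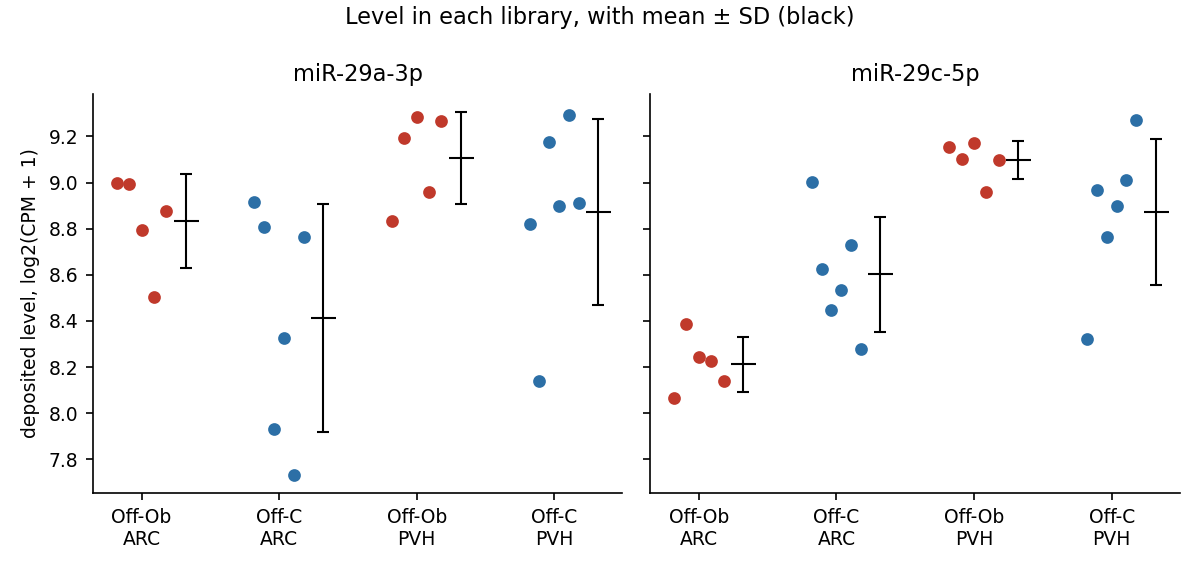
Deposited level, as log2(CPM + 1), of miR-29a-3p (left) and miR-29c-5p (right) in each library of the 4 groups, with the mean and SD in black. In the ARC the Off-Ob points of miR-29a-3p lie from 8.50 to 9.0, with 2 of them above the highest Off-C point at 8.92. Those of miR-29c-5p lie from 8.07 to 8.39, with 4 of the 5 below the Off-C range of 8.28 to 9.0. The 2 nuclei were scaled separately by the authors.

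On the deposited scale the members lay on different sides of the Off-C mean in the ARC. With plain CPM, F41A (8.54) and F42A (7.79) lay below the Off-C mean of miR-29a-3p, 8.58, and F6A, F12A and F13A above it. The ratio of the members within each library was set beside these levels. The library's scaling cancels in this ratio. Because the pair was chosen with results of these data known, it is given as a description with no p. The log2 ratio of miR-29a-3p to miR-29c-5p was 0.93, 0.61, 0.55, 0.28 and 0.73 in the ARC of the Off-Ob mice F6A, F12A, F13A, F41A and F42A, against -0.087, 0.18, -0.51, -0.21, -1.0 and 0.48 in the Off-C mice RC5A, RC8A, RC9A, RC11A, RC12A and RC13A. Every Off-Ob ARC library had more reads of miR-29a-3p than of miR-29c-5p (1.21 to 1.91 reads per read), as did 2 of the 6 Off-C libraries, RC8A and RC13A (0.50 to 1.40 over all 6). F41A lay within the Off-C range and the other 4 Off-Ob libraries above it. The mean was 0.62 ± 0.24 in Off-Ob mice (SD, n = 5) and -0.19 ± 0.52 in Off-C mice (SD, n = 6), a difference of 0.81. It ranged from 0.65 to 0.94 with any 1 library left out and was 0.67 without both F42A and F6A. In the PVH the ratio was 0.0093 ± 0.19 in Off-Ob mice and 0.00067 ± 0.51 in Off-C mice, a difference of 0.0086.

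**Figure D2:**
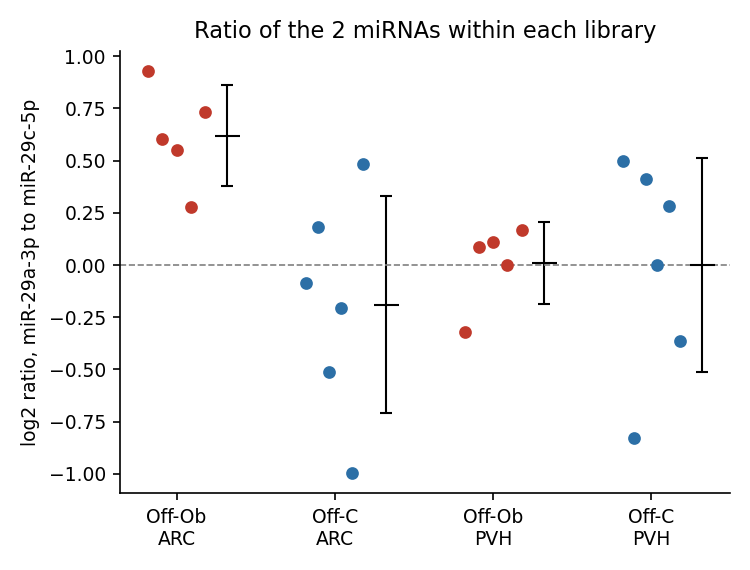
Log2 ratio of miR-29a-3p to miR-29c-5p in each library of the 4 groups, with the mean and SD in black and a dashed line at equal levels. The Off-Ob ARC points lie from 0.28 to 0.93 above the line, and the points of the other 3 groups lie on both sides of it.

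In the PVH the groups overlapped for both members. For miR-29a-3p there were 24, 17, 27, 27 and 18 reads in the Off-Ob mice F12A, F13A, F14A, F41A and F42A, against 24, 9, 24, 12, 28 and 14 reads in the Off-C mice RC5A, RC8A, RC9A, RC11A, RC12A and RC13A. The deposited levels were 8.83, 9.19, 9.28, 8.96 and 9.27 in Off-Ob mice, against 8.82, 8.14, 9.18, 8.90, 9.29 and 8.91 in Off-C mice. RC8A was the lowest library and RC12A the highest, and the Off-Ob libraries all lay between them. The mean was 9.11 ± 0.20 in Off-Ob mice (SD, n = 5) and 8.87 ± 0.40 in Off-C mice (SD, n = 6), a limma difference of 0.23 (SE 0.24, 95% interval -0.27 to 0.74, adjusted p = 0.98). Without RC8A the difference was 0.087. The exact permutation test gave p = 0.262 (two-sided, n = 5 and 6).

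miR-29c-5p in the PVH had 30, 16, 25, 27 and 16 reads in the Off-Ob mice F12A, F13A, F14A, F41A and F42A, against 17, 16, 18, 12, 23 and 18 reads in the Off-C mice RC5A, RC8A, RC9A, RC11A, RC12A and RC13A. The deposited levels were 9.16, 9.10, 9.17, 8.96 and 9.10 in Off-Ob mice, against 8.32, 8.97, 8.76, 8.90, 9.01 and 9.27 in Off-C mice. All 5 Off-Ob libraries were above the Off-C mean and below RC13A. The mean was 9.10 ± 0.08 in Off-Ob mice (SD, n = 5) and 8.87 ± 0.32 in Off-C mice (SD, n = 6), a limma difference of 0.23 (SE 0.21, 95% interval -0.23 to 0.68, adjusted p = 0.98). Without RC5A it was 0.12. The exact permutation test gave p = 0.154 (two-sided, n = 5 and 6). No miRNA of the PVH had an unadjusted limma p under 0.05 (0% of 172), and the exact permutation test put 0.581% of them there.

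**Figure D3:**
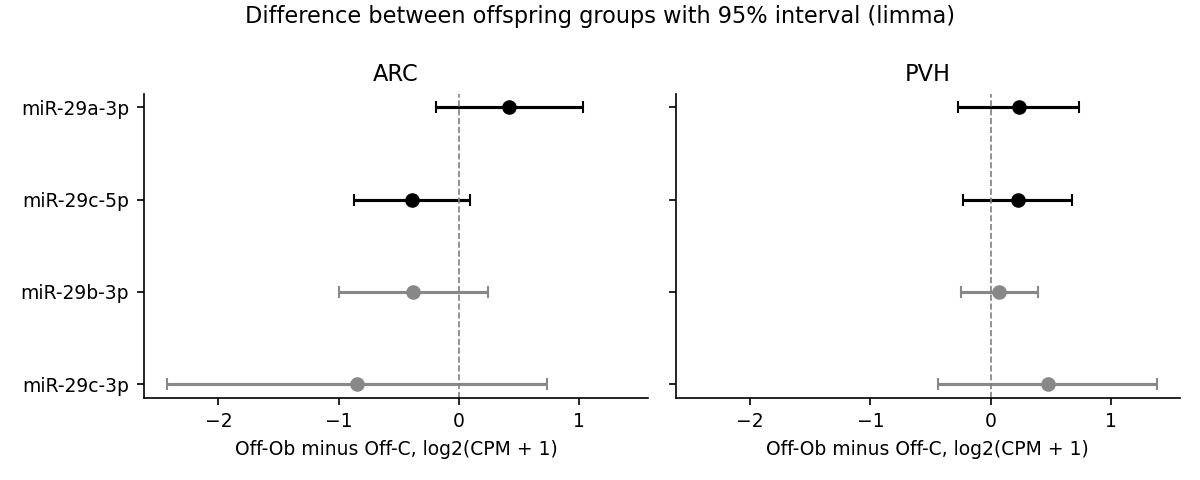
Limma difference of Off-Ob minus Off-C on the log2(CPM + 1) scale with its 95% interval, for the members (black) and the other 2 listed miR-29 arms (grey), in the ARC (left) and the PVH (right). Every interval includes 0, and the interval of miR-29c-3p in the ARC, from -2.43 to 0.74, is the widest of the 8.

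Whether the maternal difference itself was unlike between the nuclei was tested over all 22 libraries with the mouse as a block. For miR-29a-3p the difference in the ARC exceeded that in the PVH by 0.19 (SE 0.36, 95% interval -0.56 to 0.93, limma adjusted p = 0.86), and its sign turned with plain CPM (-0.15) and without mouse RC12A (-0.034). For miR-29c-5p the difference was -0.62 (SE 0.28, 95% interval -1.20 to -0.038, limma unadjusted p = 0.0379, adjusted p = 0.67), the third smallest p of the 172 miRNAs. An unadjusted p under 0.05 was reached by 2.91% of all miRNAs in this comparison and an adjusted one by 0%. With plain CPM the difference for miR-29c-5p was -0.96 (limma adjusted p = 0.54). Over the 10 mice with both nuclei, ARC minus PVH of miR-29c-5p on the deposited scale differed by -0.56 between Off-Ob mice and Off-C mice (exact permutation p = 0.0429, two-sided, 210 splits, adjusted p = 0.98, with 3.49% of all miRNAs under 0.05). Leaving out RC5A gave -0.37 (exact permutation p = 0.0556), and the p exceeded 0.05 without each of the other mice except RC13A (0.00794), up to 0.119 without any 1 Off-Ob mouse.

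The members were also compared between the nuclei within the same mice. The authors scaled the tables of the nuclei separately, and the names of the deposited columns begin with a different run of characters for each nucleus, the meaning of which is not given in the sources used here. If it marks a batch, batch and nucleus cannot be told apart. Plain CPM were used for this. In order of level, miR-29a-3p averaged 558 ± 119 CPM in Off-Ob PVH (SD, n = 5), 489 ± 141 CPM in Off-C PVH (SD, n = 6), 417 ± 133 CPM in Off-Ob ARC (SD, n = 5) and 404 ± 146 CPM in Off-C ARC libraries (SD, n = 6). For miR-29c-5p the order was 546 ± 55.9 CPM in Off-Ob PVH, 480 ± 94.6 CPM in Off-C PVH, 441 ± 89.9 CPM in Off-C ARC and 274 ± 95.3 CPM in Off-Ob ARC libraries. The SDs of neighbours in both orders overlapped.

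Within mice miR-29c-5p was lower in the ARC more often than miR-29a-3p, a difference that was not tested. ARC minus PVH of miR-29c-5p, on the log2(CPM + 1) scale of plain CPM, was -0.36 in F12A, -0.80 in F13A, -0.69 in F41A and -2.22 in F42A among Off-Ob mice, against 1.03 in RC5A, -0.24 in RC8A, -0.23 in RC9A, -0.37 in RC11A, -0.33 in RC12A and -0.55 in RC13A among Off-C mice. The ARC was thus the lower nucleus in 9 of 10 mice, RC5A being the exception. The mean difference was -0.48 (limma SE 0.26, 95% interval -1.04 to 0.091, adjusted p = 0.28, with 9.88% of the 172 miRNAs under an adjusted p of 0.05) and -0.28 without F42A. In an exact permutation test of the signs over mice p was 0.0742 (two-sided, adjusted p = 0.21), and by that test 30.8% of all miRNAs had an unadjusted and 19.8% an adjusted p under 0.05. miR-29a-3p was lower in the ARC in 6 of 10 mice, with differences from -1.66 in F42A to 0.77 in RC8A, a mean of -0.37 (limma SE 0.28, 95% interval -0.98 to 0.25, adjusted p = 0.42) and -0.22 without F42A. With 1 trimmed-mean scaling over both nuclei the mean difference was -0.12 for miR-29c-5p and -0.012 for miR-29a-3p. Fewer cells of a type and less miRNA per cell cannot be told apart in tissue of this kind.

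**Figure D4:**
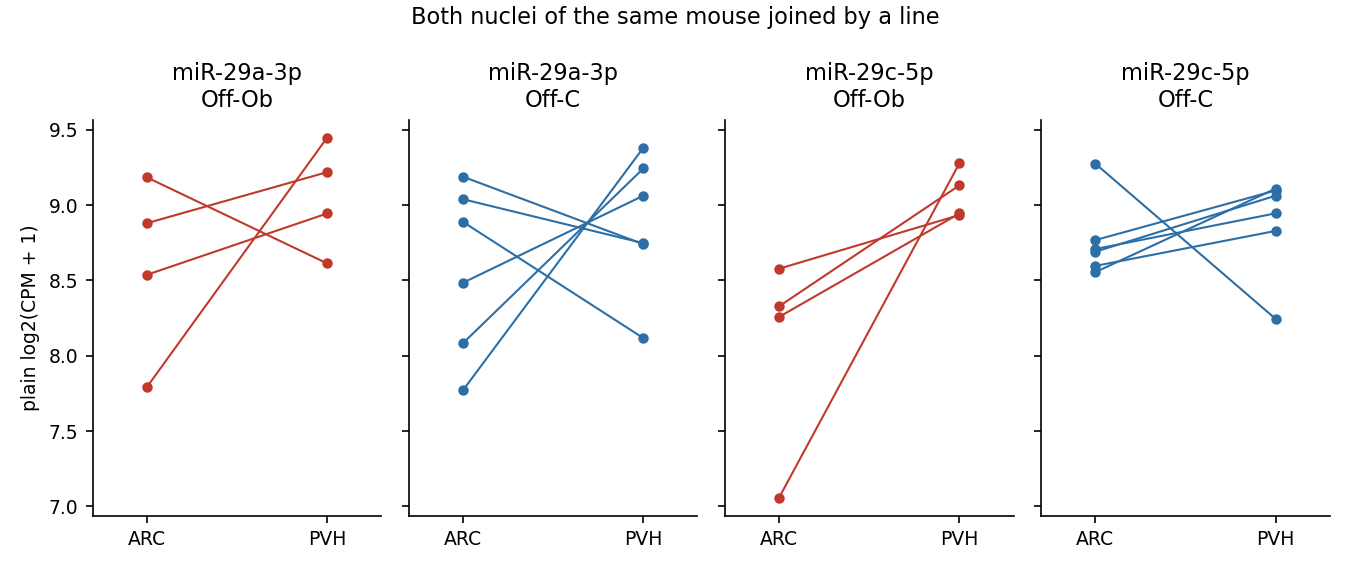
Level of miR-29a-3p (left pair) and miR-29c-5p (right pair) in the ARC and the PVH of the 10 mice with both libraries, as log2(CPM + 1) of plain CPM, with a line per mouse. For miR-29c-5p all 4 Off-Ob lines and 5 of the 6 Off-C lines lie lower at the ARC end, and the steepest is F42A with 3 reads in the ARC, whereas the lines of miR-29a-3p cross.

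By the reads as the authors assigned them, the relatives that share the seed of miR-29a-3p were far more abundant. miR-29c-3p, the other arm of the hairpin that yields miR-29c-5p, had 16 to 1408 reads in Off-Ob ARC, 195 to 1725 in Off-C ARC, 508 to 1243 in Off-Ob PVH and 179 to 1464 in Off-C PVH libraries. miR-29b-3p had 28 to 691 reads in Off-Ob ARC, 203 to 446 in Off-C ARC, 195 to 465 in Off-Ob PVH and 172 to 456 in Off-C PVH libraries. miR-29a-3p therefore gave 1.76% to 10.2% of the reads with the family seed in Off-Ob ARC and 1.10% to 3.66% in Off-C ARC libraries. The highest shares, in F42A and F6A, lay in libraries with 49 and 237 such reads, against 409 to 2203 in the Off-C ARC. In the PVH the share was 1.46% to 2.36% in Off-Ob and 1.34% to 2.73% in Off-C mice.

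The arms of the Mir29c hairpin did not keep a fixed proportion. There were 5.33 reads of miR-29c-3p per read of miR-29c-5p in F42A, 9.09 in F6A, 35.1 in F41A, 44.0 in F13A and 67.0 in F12A in the Off-Ob ARC, against 10.8 to 79.2 in the Off-C ARC. In the PVH the proportion was 30.7 to 60.5 in Off-Ob and 11.2 to 70.4 in Off-C mice. This spread came with the 3p arm rather than the 5p arm. The deposited level of miR-29c-3p had an SD of 1.67 in Off-Ob ARC, 1.03 in Off-C ARC, 0.48 in Off-Ob PVH and 1.10 in Off-C PVH mice, where counting error alone would give 0.050 to 0.18. The SDs of miR-29c-5p, 0.084 to 0.32, were no larger than its counting error of 0.31 to 0.49.

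Neither relative passed the test between the groups. In the ARC the limma difference was -0.85 for miR-29c-3p (SE 0.73, adjusted p = 0.55) and -0.38 for miR-29b-3p (SE 0.28, adjusted p = 0.51). F42A and F6A held the lowest levels of both, 10.55 and 11.25 for miR-29c-3p and 11.36 and 11.46 for miR-29b-3p, and without them both differences turned sign, to 0.33 (limma adjusted p = 0.99) and 0.097 (limma adjusted p = 0.99). In the PVH the difference was 0.47 for miR-29c-3p (SE 0.43, limma adjusted p = 0.98) and 0.073 for miR-29b-3p (SE 0.15, limma adjusted p = 0.98).

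The levels of the miR-29 arms ran against the share of let-7 reads, in unequal measure. Over the 11 ARC libraries, Spearman's rho between the deposited level and the let-7 share was -0.99 for miR-29c-3p, -0.78 for miR-29b-3p, -0.69 for miR-29a-3p and -0.43 for miR-29c-5p. Over the 11 PVH libraries it was -0.87 for miR-29c-3p, -0.57 for miR-29b-3p, -0.77 for miR-29a-3p and -0.47 for miR-29c-5p. These are descriptions over 11 libraries, and a miRNA's level and the let-7 share have the library total in common. The relation of miR-29c-3p was also present among the Off-C ARC libraries, from 14.67 at a let-7 share of 33.8% in RC5A to 12.16 at 46.8% in RC12A. The 2 members themselves had a rho of -0.35 over the ARC libraries and 0.33 over the PVH libraries. The arms of 1 hairpin, miR-29c-5p and miR-29c-3p, had 0.37 over the ARC libraries and 0.091 over the PVH libraries. The part of let-7 share in the differences between the groups was not tested.

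The miRNAs whose levels ran closest to those of the members were found from the mean of the Spearman's rho over the 11 ARC and that over the 11 PVH libraries. For miR-29a-3p these were miR-191-5p (0.68), miR-369-5p (0.64), miR-770-3p (0.62), miR-30a-3p (0.61) and miR-93-5p (0.56). For miR-29c-5p they were miR-92a-3p (0.47), miR-194-5p (0.46), miR-487b-3p (0.41), miR-541-5p (0.41) and miR-31-5p (0.40), which are weak relations at these reads. The choice depended on the scaling, since with plain CPM only 1 of the 5 names was the same for each member, miR-191-5p for miR-29a-3p and miR-541-5p for miR-29c-5p. With plain CPM miR-29c-3p came second for miR-29a-3p (0.81, from 0.70 over the ARC and 0.93 over the PVH). On the deposited scale that pair had 0.009 over the ARC and 0.78 over the PVH. The part of reads exchanged between these near-identical arms was not tested.

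Other miRNAs with a known part in feeding or energy balance were read beside the members as a list of 15, of which 9 were listed here. Among the 9 are miR-505-5p and miR-383-5p, which the study called in the ARC on these same samples. The counts for the list are therefore not independent of these data. In the ARC 6 of the 9 were higher and 3 lower in Off-Ob mice by the limma estimate, with a median of 0.10, against 67 higher and 105 lower with a median of -0.16 over all 172. By limma 0 of the 9 passed an adjusted p of 0.05 in either nucleus, and 2 had an unadjusted p under 0.05 in the ARC and 0 in the PVH, against 5.81% of the 172 miRNAs in the ARC and 0% in the PVH. miR-505-5p, the miRNA the study went on with, which it chose on these samples, had a difference of 1.76 in the ARC (SE 0.77, limma adjusted p = 0.49). In the PVH it was -0.19 (SE 0.30, limma adjusted p = 0.98). The study used another measure, a likelihood ratio test in edgeR, and reported miR-505-5p higher in Off-Ob mice in both nuclei, unlike the PVH estimate here. It also reported a rise by qPCR in the ARC of a separate cohort and in fetal hypothalamus. miR-132-3p, a miRNA induced by neuronal activity, had -1.13 in the ARC (SE 0.50, limma adjusted p = 0.49) and 0.067 in the PVH (SE 0.19, limma adjusted p = 0.98). In the PVH the 9 had a median of 0.067, with 5 higher and 4 lower, against 0.048 over all 172.

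Of 9 miRNAs that mark neurons, 7 were listed, and together they made up 0.397% to 2.85% of the reads in Off-Ob ARC, 1.99% to 2.89% in Off-C ARC, 3.86% to 5.08% in Off-Ob PVH and 3.27% to 5.27% in Off-C PVH libraries. Of the vessel markers 3 of 4 were listed, at 0.507% to 1.24% in Off-Ob ARC and 0.855% to 2.62% in Off-C ARC, and at 2.03% to 2.40% in Off-Ob PVH and 2.00% to 3.25% in Off-C PVH libraries. Only 1 marker was matched by name of 3 for oligodendrocytes, of 4 for microglia and of 5 for ependyma and choroid plexus. Each of these was under 0.3% of the reads in every library. For red blood cells 0 of 4 were matched. miR-219-2-3p, an older name of the oligodendrocyte marker miR-219a-2-3p, was also listed but is not in that share. Its limma difference was -0.23 in the ARC (adjusted p = 0.86) and -0.080 in the PVH (adjusted p = 0.98). The 2 listed pituitary markers, miR-7a-5p and miR-7b-5p, which the hypothalamus also makes, held 6.69% to 23.5% of the reads in Off-Ob ARC and 15.3% to 22.0% in Off-C ARC libraries, and 11.8% to 17.8% in Off-Ob PVH and 11.2% to 15.2% in Off-C PVH libraries. The part of these cell types in the levels of the members was not tested.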

How the data were processed

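Small RNA libraries (TruSeq kit, HiSeq) were mapped by the authors to GRCm38 with Bowtie 1.2.3, and edgeR 3.36.0 is named for their test. Their miRNA annotation and filter are not given in the sources used here. The deposited log2 values are log2(CPM + 1), scaled by the authors with a trimmed-mean factor per library, separately for each nucleus. Whole reads were recovered from them (all 3784 values within 0.01 of a whole read, 0 sample columns unused). The deposited names give each library's group and mouse but not its sample record, and 2 libraries of the identifier sheet without a column were not analysed here. Off-Ob and Off-C were compared in limma 3.58.1 (R 4.3.3) using a trend of variance on level, p-values adjusted by Benjamini-Hochberg over all 172 miRNAs, beside exact permutation tests of single values (8 for each member over all libraries, and 2 more without F42A and F6A). Nuclei were compared in a fit with the mouse as a block. The fits and exact tests were tested on simulated data. With 1 male per litter, mice stand for separate dams. The miRNAs named are the members, those with their seed, the 5 with the most similar levels for each, the energy balance list and 1 oligodendrocyte marker. The members and lists were chosen with earlier results of these data known. Python 3.11.15, NumPy 2.4.6, SciPy 1.17.1, pandas 2.3.3 and matplotlib 3.10.9 were used.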

Additional observations from a re-analysis of the deposited data

Results flagged for a closer look

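The maternal difference of miR-29c-5p was unlike in the ARC and the PVH at an unadjusted threshold. ARC minus PVH differed by -0.56 between 4 Off-Ob and 6 Off-C mice (exact permutation p = 0.0429, two-sided, adjusted p = 0.98 over the 172 miRNAs). By that test 3.49% of the 172 had an unadjusted p under 0.05. On the same deposited scale each of the 4 Off-Ob mice was below the Off-C mean, but the groups overlapped. The Off-C mouse RC13A (8.28 in the ARC, 9.27 in the PVH) had a lower ARC minus PVH than any Off-Ob mouse. RC5A (9.0 in the ARC, 8.32 in the PVH) was the only Off-C mouse higher in the ARC. The difference rested on 3 to 28 reads per Off-Ob library in the ARC, and the p exceeded 0.05 without any 1 Off-Ob mouse. Dixon's test was run within each of the 4 groups, on the levels of the 4 listed miR-29 arms and the ratio of the members. It singled out no library. The test takes the gap between 1 library and its neighbour, so it cannot find 2 libraries that lie low together. For miR-29c-3p in the Off-Ob ARC, F42A and F6A lay at 10.55 and 11.25, against 13.36 to 14.45 in F41A, F13A and F12A. The let-7 share, in which F42A and F6A stood apart, was not put to that test. Neither was the scale factor, in which they were the lowest of the ARC libraries.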

How the results depend on the processing

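No call of a member changed in the limma comparisons: 0 miRNAs passed an adjusted p of 0.05 between Off-Ob and Off-C in either nucleus under every alternative run, limma-voom included. Between Off-Ob and Off-C the limma adjusted p of the members stayed at 0.31 or above. Between ARC and PVH it went down to 0.092 for miR-29c-5p and 0.23 for miR-29a-3p. In the ARC, miR-29a-3p ranged from 0.28 to 0.52 and miR-29c-5p from -0.45 to -0.31 with 1 library left out, and from 0.063 to 0.58 and from -0.75 to -0.21 under other settings. The median difference moved with the setting. The median over all 172 in the ARC was -0.16 as deposited (39% higher), -0.52 with plain CPM (20.9% higher), 0.021 after quantile normalization (51.7% higher) and -0.0046 without F42A and F6A (48.8% higher), and in the PVH it was 0.048 (57% higher), against -0.016 with totals without let-7 (46.5% higher). Set against those medians, miR-29a-3p in the ARC stayed above and miR-29c-5p below. Signs turned for miR-29c-3p with library weights (0.13 in the ARC, -0.064 in the PVH) and without F42A and F6A (0.33), for miR-29b-3p in the ARC without both (0.097), and for miR-29a-3p between the nuclei with plain CPM (-0.15), where leaving out 1 mouse gave -0.034 to 0.41. The log2 ratio of the members in the ARC was 0.67 without F42A and F6A, a choice made after seeing the data, and in the PVH it ranged from -0.16 to 0.11 with 1 library left out. The cause was not tested.

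Between Off-Ob and Off-C by replicate number, no paired analysis was possible because the deposited columns carry mouse names and not the replicate numbers of the labels. Between the nuclei, libraries were paired by mouse, with the mouse as the block. Without that block the difference between the nuclei in the maternal effect was 0.19 for miR-29a-3p and -0.62 for miR-29c-5p, and ARC minus PVH -0.37 and -0.48, with no call changed. With 3 to 34 reads per library, depth limits every statement on the members. Trimmed means recomputed within a nucleus gave back the deposited factors.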
